A study of Mus musculus with 16 samples.

Results

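The mRNAs of 10 mouse genes, out of 13275 genes with an mRNA reference in the files, are described here, each through its reference transcript. They are Nid2, Cenpv, Sec61a1, Nus1, Rab4b, Nkd2, Srsf6, Med24, Snrnp40 and Gcn1. They were selected on the non-conversion level of a cytosine in RNA bisulfite sequencing of these libraries, that is, on how many reads stayed unconverted there. The height of each site is therefore a description with no test, while its difference between genotypes and the level of the mRNA were tested. Of the 10, 8 carried 1 cytosine at a mean of 62.2% to 94.0% with low cytosines on both sides. Snrnp40 carried a short run of 6 cytosines that was high in 1 library, and Gcn1 carried 2 distant cytosines below 20% on average, so neither matched the description of a single strongly methylated cytosine.

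The study compared J1 mouse embryonic stem cells, wild type and Dnmt2-/-, both grown on embryonic fibroblast feeders in serum with leukaemia inhibitory factor and then parted from the feeders by letting these attach. The libraries used here come from the long RNA fraction after rRNA depletion, 3 from wild-type cells and 3 from Dnmt2-/- cells, and the labels give no further treatment. The labels do not say whether replicates came from separate cultures, nor how many knockout clones were used, so a p-value here speaks of the scatter among these libraries, and that scatter may be technical. The libraries listed 2304342 to 4289381 cytosines at a median coverage of 6 to 11 reads, with wild-type replicate 3 the shallowest and wild-type replicate 2 the deepest.

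Bisulfite turns unmodified cytosine into uracil, which is read as thymine, while 5-methylcytosine resists, so the share of reads that still show cytosine is the non-conversion level of a site. Unmethylated cytosines can also escape the reaction, so the level is a reading and not the modification itself. In mRNA, 5-methylcytosine is placed by enzymes of the Nsun family, chiefly Nsun2 and Nsun6, whereas Dnmt2, encoded by Trdmt1, is known as a tRNA methyltransferase. Alyref, an mRNA export adaptor, and Ybx1, an RNA-binding protein, are known readers of the mark.

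The labels were checked first. The scaled coverage of Trdmt1, in reads per cytosine after scaling, was 4.73, 3.80 and 3.21 in wild-type replicates 1 to 3 and 1.43, 0.501 and 1.07 in the knockouts. The groups did not overlap, yet the log2 difference of -1.59 had an adjusted p of 0.375 in limma, so the deleted gene itself did not pass the test used for mRNA levels. Its reads in the knockouts were listed no farther than position 142 of the transcript, against 1245 to 2439 in the wild type. Summed scaled coverage of 8 pluripotency markers was 1869 to 2291 in the wild type and 2150 to 2890 in the knockout. The largest term of the sum was Dppa5a, at means of 1163 and 1760. Of 8 tested references 6 had a positive log2 difference. The 2 lower ones were Sox2, at 61.2 and 57.6, and the better covered Pou5f1 reference, at 211 and 178. In limma 0 passed. For fibroblast markers, 8 of 11 were listed, with sums of 34.7, 39.0 and 70.3 in the wild type and 40.9, 38.0 and 22.1 in the knockout. All 8 had a lower knockout mean (median log2 difference -0.71), and 0 passed the limma test. Dcn was at 0 in 5 of the 6 libraries and at 8.21 in wild-type replicate 3, and Pdgfrb, Lum and Postn were not listed. Of 7 primitive endoderm markers 3 were listed, at sums of 1.16 to 5.00.

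Against the whole transcriptome such levels were rare. Among 741725 mRNA cytosines with 10 or more reads in all 6 libraries, the median non-conversion was 1.51%. Only 456 of them, or 0.0615%, reached a mean of 10%, and 13, or 0.00175%, reached 50%. The transcript around the chosen sites converted well: over all other listed cytosines of the 10 mRNAs, pooled non-conversion per library ran from 0.828% to 2.52%.

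Nid2 encodes nidogen-2, a basement membrane protein that links laminin and collagen IV networks. At position 521 of its reference transcript (NM_008695.2, chromosome 14) non-conversion was 63.2%, 75.0% and 86.0% in the 3 wild-type libraries, on 38, 96 and 43 reads. In the knockout libraries it was 73.4%, 75.6% and 74.0%, on 64, 45 and 131 reads. The wild-type values spread on both sides of the tight knockout values, so the groups overlapped, with means of 74.7% ± 11.4 (SD, n = 3) and 74.3% ± 1.09 (SD, n = 3). All 41 other cytosines within 50 nt had 10 or more reads in every library. The highest of them, 6 nt downstream, stood at 6.36%. Elsewhere in the transcript, at a minimum of 5 reads, a second cytosine reached 12.2%.

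Cenpv, centromere protein V, takes part in centromere organisation and cytokinesis. Its site at position 680 (NM_028448.1, chromosome 11) read 69.4%, 73.1% and 73.9% in the wild type on 49, 67 and 23 reads. The knockout read 72.9%, 73.6% and 80.0% on 70, 72 and 60 reads. The groups overlapped, with knockout replicate 3 the highest library. The 3 cytosines directly upstream form an unbroken run with the site, and their pooled wild-type levels were 0.735%, 2.14% and 0.709%, so the high level stopped within a single base.

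Sec61a1 encodes the pore subunit of the translocon that carries new proteins into the endoplasmic reticulum. Position 2857 (NM_016906.4, chromosome 6) read 67.9%, 61.2% and 70.8% in the wild type on 53, 121 and 48 reads. The knockout read 63.1%, 67.9% and 63.6% on 65, 53 and 107 reads. The knockout range lay inside the wild-type range. The next cytosines, 4 and 5 nt downstream, stood at 1.35% and 3.21% in the wild type.

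Nus1 encodes the Nogo-B receptor, a subunit of the enzyme that makes dolichol for protein glycosylation. Position 473 (NM_030250.2, chromosome 10) was the most deeply read of the sites, with 67 or more reads in every library. It read 55.9%, 57.8% and 62.2% in the wild type on 68, 166 and 74 reads, and 65.0%, 65.7% and 66.8% in the knockout on 80, 67 and 202 reads. Every knockout library stood above every wild-type library, with means of 58.6% ± 3.21 and 65.8% ± 0.927 (SD, n = 3 each). The cytosine 2 nt upstream read 0.658% in the wild type and the one 4 nt downstream 1.28%. A second cytosine of this mRNA, away from the site, reached a mean of 10.1%.

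Rab4b is a small GTPase of the endosomal recycling route. Position 362 (NM_029391.2, chromosome 7) read 63.2%, 55.8% and 73.3% in the wild type on 19, 43 and 15 reads. The knockout read 54.2%, 71.4% and 64.3% on 24, 14 and 42 reads. The 2 groups interleaved, and the counting error was wide: the exact 95% interval of the 15 reads of wild-type replicate 3 ran from 44.9% to 92.2%. Such intervals cover counting error only, because the reads carry no molecular identifiers. The cytosine 2 nt downstream stood at 1.27% in the wild type.

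Nkd2, naked cuticle 2, binds Dishevelled and restrains Wnt signalling. Its site at position 3097 (NM_028186.4, chromosome 13) had the highest level of the 10 mRNAs: 89.5%, 87.8% and 100% in the wild type on 19, 41 and 16 reads. The knockout read 90.6%, 96.3% and 100% on 32, 27 and 15 reads. In wild-type replicate 3 all 16 reads were unconverted, for which the exact 95% interval starts at 79.4%. The cytosine directly before it stood at 1.32% in the wild type, and the cytosine 25 nt downstream, at 7.42%, was the highest neighbour of the 8 single sites among those with 5 or more reads in every library. The site lies in a short covered stretch at the 3′ end of the reference. Its 14 cytosines, positions 3096 to 3122, had 146 to 151 reads each over the 6 libraries, whereas the other 230 listed cytosines of the transcript had a median of 3 and at most 14. The next listed cytosine upstream, at position 3069, had 6 reads. The reads at the site thus cover a short stretch set apart from the rest of the mRNA, and whether they stem from the Nkd2 transcript was not tested.

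Srsf6 encodes a splicing factor of the serine and arginine rich family. Position 1251 (NM_026499.4, chromosome 2) read 56.3%, 67.6% and 77.8% in the wild type on 16, 37 and 9 reads. The knockout read 69.6%, 70.4% and 85.7% on 23, 27 and 14 reads. Wild-type replicate 3 fell below the minimum of 10 reads, so the site counts only at a minimum of 5. At 10 reads the highest wild-type cytosine was position 872, at 6.0%. The adjoining cytosine 1 nt downstream of position 1251 was at 0 of its wild-type reads and at 1.59% in the knockout.

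Med24 is a subunit of Mediator, the complex that links transcription factors to RNA polymerase II. Position 553 (NM_011869.2, chromosome 11) read 57.1%, 68.0% and 71.4% in the wild type on 14, 25 and 7 reads. The knockout read 58.8%, 63.6% and 75.0% on 17, 11 and 20 reads. Here too wild-type replicate 3 lay below 10 reads, with an exact 95% interval of 29.0% to 96.3%. At 10 reads the highest wild-type cytosine was position 2348, at 9.44%. The cytosines 3 nt upstream and 5 nt downstream of position 553 stood at 0.0% and 2.27% in the wild type.

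**Figure D1:**
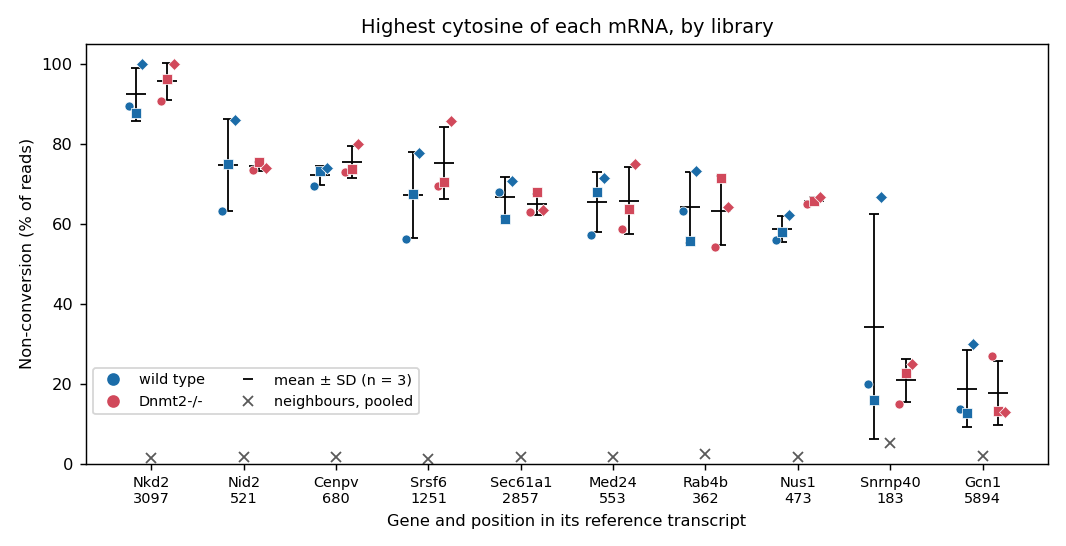
Non-conversion in percent of reads (vertical axis) of the highest cytosine of each of the 10 mRNAs, with 1 point per library for 3 wild-type and 3 Dnmt2-/- libraries. The 8 other sites lie between 54.2% and 100% in every library in both genotypes, while Snrnp40 is above 25% only in wild-type replicate 3 and Gcn1 stays at 30.0% or below.

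Ranked by the mean of the 6 libraries, the single sites ran Nkd2 94.0%, Nid2 74.5%, Cenpv 73.8%, Srsf6 71.2%, Sec61a1 65.7%, Med24 65.7%, Rab4b 63.7% and Nus1 62.2%. The lowest Nkd2 library, at 87.8%, was above the highest Nid2 library, at 86.0%. From Nid2 down, each site's range over libraries overlapped that of the next, so adjacent ranks are not resolved beyond the spread. Sites farther apart could separate: Cenpv ran from 69.4% to 80.0% and Nus1 from 55.9% to 66.8%.

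The single sites stood alone among their neighbours. The files listed 232 other cytosines within 50 nt of the 8 sites, and pooled per site they read 1.07% to 2.52%. Of the 206 with 5 or more reads in every library, 0 reached 10% as a mean of the 6 libraries. Pooled by genotype, 3 thinly read neighbours passed 10% in the wild type: those 46 and 45 nt upstream of the Nus1 site, at 10.3% and 10.5% on 39 and 38 reads, and the one 46 nt upstream of the Rab4b site, at 11.9% on 42 reads. No site had a neighbour that shared its level, including the directly adjoining cytosines of Cenpv, Nkd2 and Srsf6. Coverage at the site was 0.904 to 1.75 times the median of its neighbours, with Nid2, Srsf6 and Nus1 highest at 1.745, 1.585 and 1.539. It changed steeply around some sites. At Nid2 it fell from 1048 reads 48 nt upstream to 209 reads 16 nt downstream. At Nus1 it rose from 70 reads 46 nt upstream to 657 at the site.

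**Figure D2:**
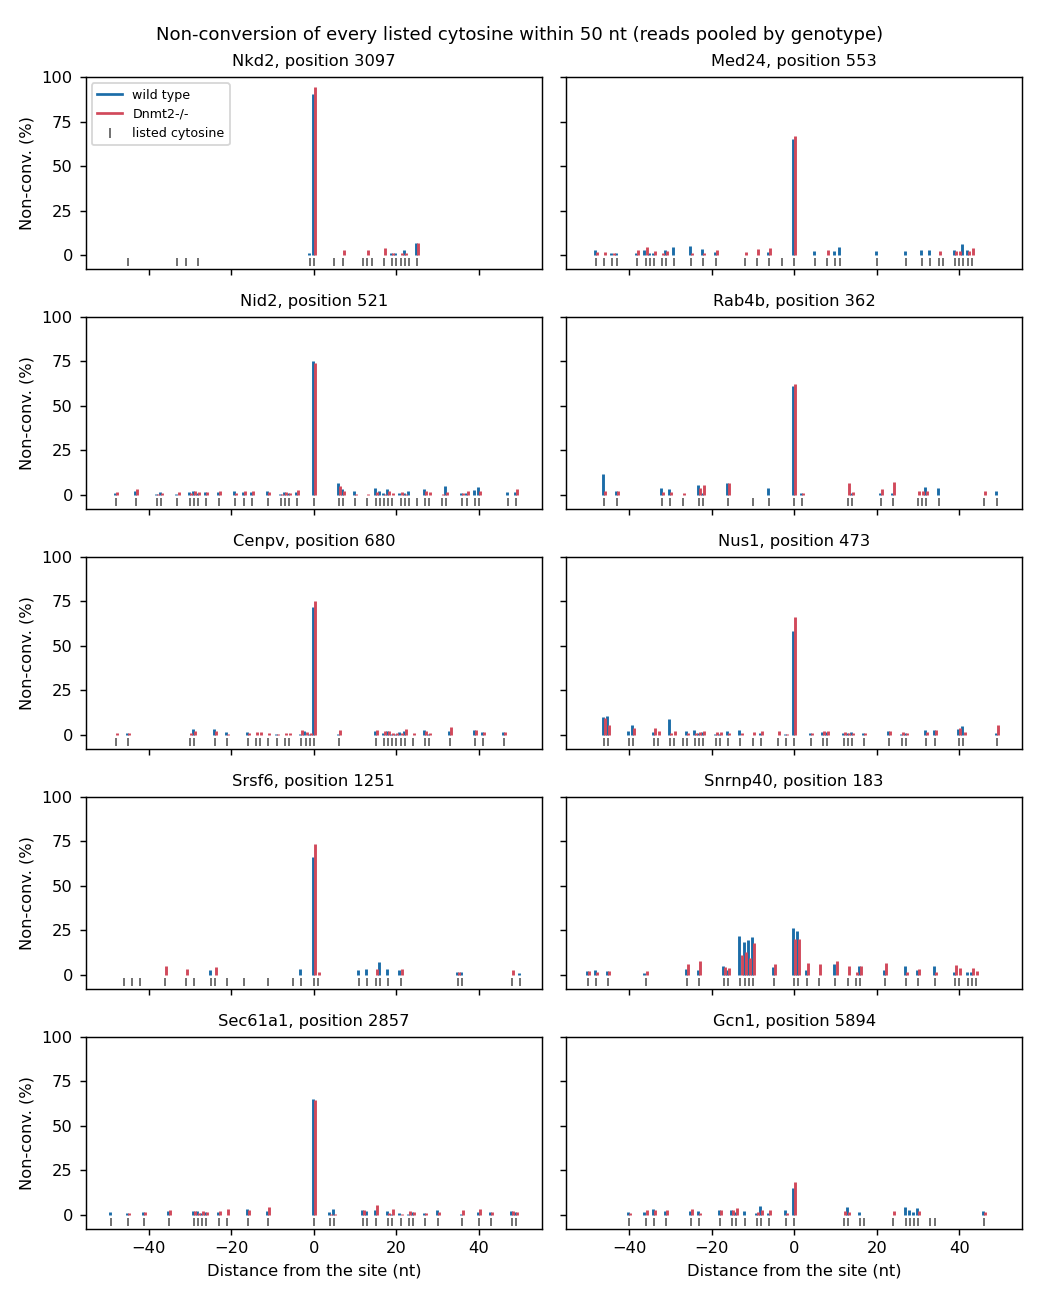
Non-conversion in percent (vertical axis) of every listed cytosine within 50 nt of the highest cytosine of each of the 10 mRNAs against its distance in nucleotides, with reads pooled by genotype and ticks under the bars for listed cytosines. In 8 panels the site at 0 nt stands above 50% in both genotypes and no neighbour exceeds 11.9%, while Snrnp40 shows a cluster of raised cytosines and Gcn1 a low single bar.

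Place in the transcript did not unite them. Taking the last listed cytosine as the end of the transcript, Nus1, Nid2 and Med24 carried the site in the first 20%, at 10.5%, 11.7% and 16.3% of that span. Rab4b and Srsf6 followed at 31.1% and 35.8%, Cenpv at 66.4%, and Sec61a1 and Nkd2 near the 3′ end at 94.2% and 99.2%. Whether a site lies in the coding region or in a UTR was not analysed here.

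The spacing of listed cytosines gives a view of the bases around each site, where a position that no library lists was taken to be no cytosine. The motif CTCCA, with its first base at the site, is linked to Nsun6 and needs cytosines 2 and 3 nt downstream, which 0 of the 8 sites have and 6.3% of the 741725 cytosines have. The motif CNGGG, with its first base at the site, is linked to Nsun2 and needs positions 2 to 4 nt downstream to be free of cytosine. That holds for Nid2, Cenpv, Nkd2, Srsf6 and Med24, 5 of 8, against 43.5% of all the cytosines. Spacing alone cannot show which other bases stand there, so these counts describe the sites and name no enzyme.

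Snrnp40, a protein of the U5 small nuclear ribonucleoprotein of the spliceosome, differed from this pattern. Its highest cytosine, position 183 (NM_025645.2, chromosome 4), read 20.0%, 16.0% and 66.7% in the wild type on 15, 50 and 15 reads. The knockout read 14.8%, 22.7% and 25% on 27, 22 and 16 reads. Wild-type replicate 3 stood far above the other 5 libraries. The wild-type mean was 34.2% ± 28.2 (SD, n = 3), and without it the mean was 18.0%. In this transcript 6 cytosines averaged 10% or more, at positions 170, 171, 172, 173, 183 and 184. In wild-type replicate 3 they read 61.1%, 64.7%, 64.7%, 76.5%, 66.7% and 73.3%. In the other 5 libraries none of them passed 28.6%. Position 178, between the 2 blocks, averaged 5.95% in the wild type, so the run was not unbroken.

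**Figure D3:**
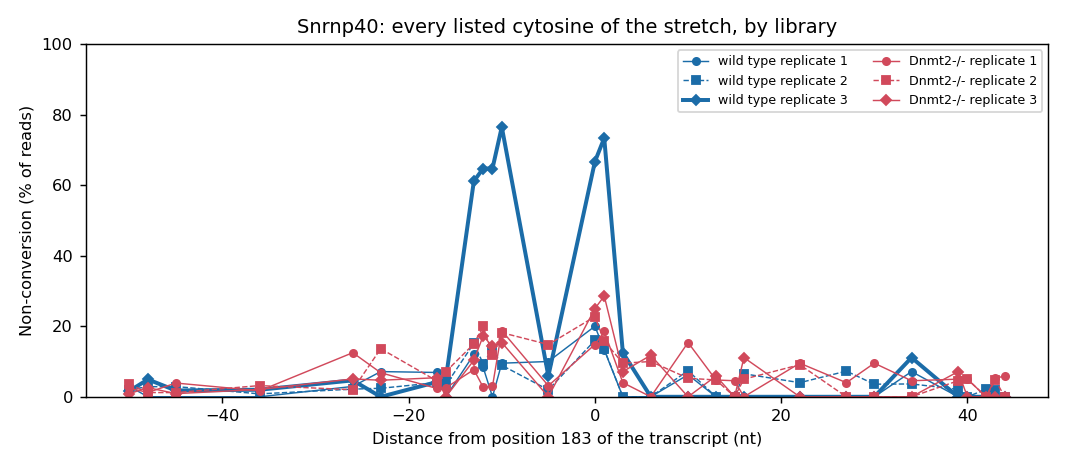
Non-conversion in percent (vertical axis) of each listed cytosine of the Snrnp40 stretch against its distance in nucleotides from position 183, with 1 line per library. Wild-type replicate 3 reaches 61.1% to 76.5% at 6 cytosines, where the other 5 libraries stay at 28.6% or below.

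Gcn1 encodes the ribosome-bound activator of the kinase Gcn2 in the integrated stress response. Its highest cytosine, position 5894 (NM_172719.2, chromosome 5), read 13.6%, 12.7% and 30.0% in the wild type on 22, 55 and 10 reads. The knockout read 26.8%, 13.0% and 12.8% on 41, 23 and 39 reads. One library of each genotype stood at over 25% and the others near 13%. A second cytosine, position 2559, was nearly as high and steadier, at 15.4%, 14.5% and 20.0% in the wild type and 20.0%, 17.2% and 19.0% in the knockout. The neighbours of position 5894 within 50 nt reached at most 3.83%, so the site was isolated but not strong.

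No site passed the test between genotypes. The edgeR quasi-likelihood test of non-converted against converted reads covered 8193 cytosines with 10 or more reads in every library and a mean of 5% or more. It called 0 (0.0%) at an adjusted p under 0.05, with 202 at an unadjusted p under 0.05 and 27 (0.33%) by Fisher's exact test on summed reads, none of them in the 10 mRNAs. The highest cytosine of 9 of the mRNAs entered it, with adjusted p of 0.999 or more in edgeR, and so did the second Gcn1 site. For Med24 that was position 2348. The sites of Srsf6 and Med24 entered only at a minimum of 5 reads, where the smallest unadjusted p of the 11 described sites was 0.418 in edgeR. A missed threshold does not show equal levels: at the 8 single sites the knockout minus wild-type difference ran from -1.79 to 8.02 percentage points, with the knockout mean higher at 5 of 8.

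Nus1 was the only one of the 8 with groups that did not overlap, which 7.88% of the 8193 tested cytosines also showed, 4.39% with the knockout higher. At a minimum of 5 reads, which adds Srsf6 and Med24, it was 7.33% of 36520 cytosines. Its difference was 7.21 percentage points, with an unadjusted p of 0.424 in edgeR and 0.1 in the two-sided exact permutation test, the smallest that 3 against 3 allows. Over all 58 cytosines of the 10 mRNAs that were tested, 4 (6.9%) had groups that did not overlap and 0 had an unadjusted p under 0.05 in edgeR. That share is near the background. With wild-type replicate 3 left out, the small differences at Nid2, Sec61a1 and Rab4b turned from -0.39, -1.79 and -0.81 to 5.27, 0.31 and 3.81 percentage points. The knockout mean was then higher at 8 of the 8 single sites, by 0.31 to 13.3 percentage points, the largest at Srsf6. In edgeR 0 of them passed. Wild-type replicate 3 was the highest wild-type library at each of these sites, so leaving it out had to raise every difference. The count is therefore no evidence of a genotype difference. Among all tested cytosines with non-overlapping groups, 2500 of 3715 were higher in the knockout without it, against 360 of 646 with all 6 libraries. These counts come from unlike sets, of 22139 and 8193 tested cytosines. Leaving out wild-type replicate 1 instead gave 1041 of 1775, and leaving out wild-type replicate 2 gave 742 of 2678.

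One library stood out across the sites. Wild-type replicate 3, the shallowest, had the highest level of the 3 wild-type libraries at 8 of the 8 single sites. Among the 3 knockout libraries, replicate 3 was highest at 5 of the 8 and replicate 2 at 3. At 50 other cytosines with a mean of 30% or more outside these mRNAs, wild-type replicate 3 was highest of its genotype at 22, or 44.0%. Knockout replicate 3 was highest of its genotype at 18 of these, or 36.0%. The fibroblast marker sum, given above, was the highest of the 6 libraries in wild-type replicate 3 and the lowest in knockout replicate 3. Knockout replicate 3 had the largest summed coverage of the 3 knockout libraries. The part of depth or of other cells in these levels was not tested.

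The mRNAs themselves were mostly well expressed. The level is given as the mean reads per listed cytosine, scaled between libraries, which compares transcripts without favouring long ones. In these bulk samples fewer cells of a type and less RNA per cell cannot be told apart. By mean scaled coverage Nkd2 stood at percentile 22.5 of the 11240 tested references, Rab4b at 76.2, Med24 at 80.2, Nus1 at 80.9 and Cenpv at 89.8. Gcn1, Sec61a1, Nid2, Snrnp40 and Srsf6 followed at 91.2, 93.4, 94.3, 94.8 and 95.4. A site counts only where it has enough reads, so these ranks are not independent of the choice.

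No mRNA of the 10 passed the limma test between genotypes, nor did any of the 11240 transcripts tested, with 0 called (0.0%) and 775 at an unadjusted p under 0.05. The knockout mean was higher for 3 of the 10 and lower for 7, with a median log2 difference of -0.09, beside 55.2% higher and a median of 0.03 over all tested transcripts. These log2 differences are of scaled coverage plus a pseudocount of 0.5 and understate changes of low transcripts.

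Nid2 came nearest. Its scaled coverage was 51.9, 47.9 and 58.2 in the wild type and 65.5, 59.8 and 67.4 in the knockout. The groups did not overlap, which 11.9% of all tested transcripts showed. The log2 difference was 0.29 with a standard error of 0.12, an unadjusted p of 0.0478 and an adjusted p of 0.711 in limma. Srsf6 was read at 67.1, 69.7 and 95.6 in the wild type and 54.0, 58.3 and 79.3 in the knockout. In both genotypes replicate 3 was the highest, and the log2 difference of -0.28 had an adjusted p of 0.931 in limma. The knockout was lower in each of the 3 same-numbered pairs, and with the replicate number as a block the adjusted p was 0.427 in limma.

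The others differed less or were low. Nkd2 gave 2.41, 2.19 and 3.11 in the wild type and 2.43, 2.39 and 1.19 in the knockout, for a log2 difference of -0.33 with a standard error of 0.34. This level, and the percentile, rest largely on the covered 3′ stretch: before scaling its 14 cytosines averaged 14.8 to 41.0 reads per library, the other 230 averaged 0.230 to 1.29. For Sec61a1 the means were 51.3 ± 9.6 and 51.5 ± 3.66 (SD, n = 3 each), for Cenpv 33.9 ± 3.24 and 35.8 ± 5.20. Snrnp40 averaged 65.9 ± 5.34 in the wild type and 61.9 ± 3.23 in the knockout, and Gcn1 41.4 ± 6.16 and 38.0 ± 2.13. The remaining 3, Med24, Nus1 and Rab4b, lay between 15.5 and 20.8 on average in both genotypes. Their log2 differences were -0.10, -0.08 and -0.12.

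**Figure D4:**
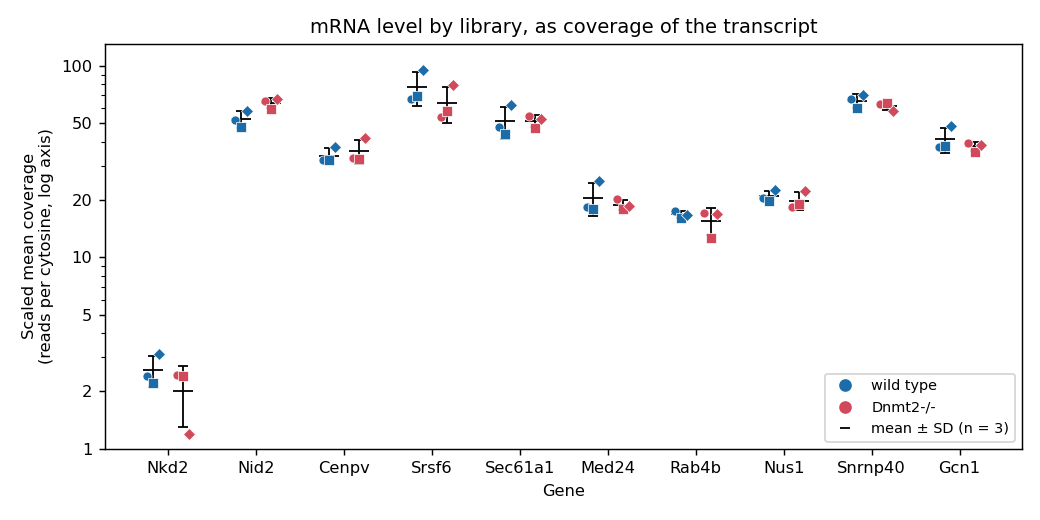
Scaled mean coverage in reads per cytosine (vertical log axis) of the 10 mRNAs, with 1 point per library and the mean ± SD of 3 wild-type and 3 Dnmt2-/- libraries. Nid2 is the only one whose genotypes do not overlap, with 47.9 to 58.2 in the wild type and 59.8 to 67.4 in the knockout, and Nkd2 lies lowest at 1.19 to 3.11.

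No partner gene with enough reads held a strong site. From lists of 91 partner genes, such as other basement membrane, translocon, Mediator, U5 and SR splicing genes, 88 were listed in 114 references, of which 67 had a cytosine with 10 or more reads in every library. Their highest cytosines had a median of 5.07%, with 4 at 10% or more and 0 at 50% or more. Such levels were rare everywhere, with 0.0615% of all mRNA cytosines at that depth at a mean of 10% or more. The share of all references was not counted, so these counts do not set the partners apart. The highest were Prpf8, the core protein of U5, at 18.4% (position 344), Cenpb, which binds centromeric DNA, at 15.6% (1183), Hspg2, the basement membrane proteoglycan perlecan, at 14.8% (5558), and the laminin chain Lamc1 at 10.3% (2295). Cenpb was named here after its value was seen. Of 101 partner references tested for mRNA level, 0 passed in limma, with 46 higher and 55 lower in the knockout.

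By list, no partner passed either, and higher or lower below gives the sign of the log2 difference. Beside Nid2, 6 of 9 basement membrane references had a positive log2 difference. Nid1, the closest relative of Nid2, averaged 11.9 ± 1.21 in the wild type and 19.5 ± 2.79 in the knockout, and the laminin chain Lama1 3.70 ± 1.07 and 8.95 ± 1.98. Their groups did not overlap, and their log2 differences of 0.69 and 1.18 had adjusted p of 0.375 and 0.368 in limma, but both were named after their values were seen. Hspg2 had 26.5 ± 5.96 in the wild type and 28.4 ± 3.15 in the knockout, and Lamc1 had 49.0 ± 6.68 and 45.8 ± 4.13. Of 12 translocon references 7 were higher, with Ssr2 at 54.6 ± 5.71 and 66.7 ± 12.7 and Ssr3 at 45.6 ± 4.84 and 46.3 ± 6.15. Among 15 SR splicing factor references 10 were lower, with Srsf2 at 288 ± 50.9 and 260.1 ± 48.8. These are scaled coverages, wild type before knockout (SD, n = 3 each), and 0 of each list passed in limma.

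The remaining lists also held 0 calls in limma. Of 18 Mediator references 10 were higher and 8 lower, the best covered, Med30, among the lower at 33.3 ± 4.87 and 31.7 ± 2.66. Of 11 U5 references 6 were higher and 5 lower, and Snrnp200, the helicase that unwinds U4 from U6, was among the lower at 90.8 ± 6.85 and 86.4 ± 0.922. Of 9 Wnt regulator references 6 were lower, with Ctnnb1, the Wnt effector beta-catenin, at 80.2 ± 25.8 and 70.7 ± 28.5. Among 8 stress response references 6 were lower, while Asns, asparagine synthetase, averaged 105.8 ± 15.0 and 122 ± 11.6. Rab4a, the close relative of Rab4b, averaged 20.3 ± 3.16 and 14.1 ± 0.875, with an adjusted p of 0.410 in limma. Of 7 Rab recycling references 3 were higher, of 4 dolichol synthesis references 1 was higher, and of 8 centromere and passenger references 3 were higher.

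No enzyme or reader of the mark passed the test between genotypes. Of 15 such genes 14 were listed and 13 were tested, with 0 called in limma, 8 higher and 5 lower in the knockout. The 13 include Trdmt1, the deleted gene, whose values stand above. Nsun2 averaged 60.0 ± 6.29 in the wild type and 63.1 ± 5.06 in the knockout, while Nsun6 was near the floor at 0.701 ± 0.767 and 0.756 ± 0.425 and was not tested. Alyref averaged 124.9 ± 16.7 and 113 ± 5.56, and its own mRNA carried a cytosine at 16.2% (position 187).

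Outside the 10, few transcripts shared the pattern. A lone site was counted where a cytosine had 10 or more reads and 50% or more in every library, and no other cytosine within 50 nt averaged 10%. This held for 9 transcripts: Nid2, Cenpv, Sec61a1, Nus1, Rab4b and Nkd2, and also H3c6, Rpl34-ps1 and Rps2. The last 3 stood at means of 97.4% (position 421), 92.4% (153) and 90.1% (703). They are named for a histone H3, a ribosomal protein L34 copy and ribosomal protein S2, multigene families whose reads the counting could split, so their values are uncertain. Srsf6 and Med24 joined at a minimum of 5 reads, where 14 transcripts qualified, 8 of them among the 10. Rpl26, Ubb and Nr6a1, outside the 10, joined there too. Their means were 97.0% (position 241), 83.6% (369) and 65.6% (122), with at least 8, 5 and 6 reads per library. Nr6a1 thus stood level with Med24 at 65.7%. Those just outside, with 30% but not 50% in every library, included Poldip3 at 47.3% and 42.2%, Eif3i at 46.5% and Fscn1 at 46.1% on average, whereas Nus1 at 62.2% was the lowest just inside.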

How the data were processed

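RNA bisulfite libraries of the rRNA-depleted long RNA fraction (split at 200 nt), 3 wild type and 3 Dnmt2-/-, were used, grouped by the labels. Per the file headers, the authors list the coverage of each reference cytosine, a raw read count, and its unconversion ratio, a deposited fraction between 0 and 1. Per the submitters' processing notes BSMAP and build mm9 were used, with the version not given in the sources used here. Listed coverage starts at 3, and a cytosine missing from a library was taken as 0. Coverage multiplied by ratio gave whole non-converted counts in all 20824445 entries (tolerance 0.01, largest deviation 7.97e-10). Of 15330 references, 15239 had a symbol in a RefSeq table of GRCm38.p6, used for names and chromosomes only. It lists newer versions of the Nkd2 and Med24 transcripts. Positions count from the 5′ end of the reference. Libraries of a genotype had identical values at 0.155% to 3.46% of shared cytosines, so none was taken as a duplicate.

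Site levels were tested with edgeR 4.0.16 (R 4.3.3, quasi-likelihood, interaction of genotype with conversion state, a term per library) at 10 or more reads in every library and a mean of 5% or more. Transcript coverage, averaged over cytosines and scaled by TMM, was tested with limma 3.58.1 on log2(value + 0.5) at a mean of 1 or more. All p-values were Benjamini-Hochberg adjusted over the whole table, at 0.05. Intervals are Clopper-Pearson at 95%, and permutation tests came from SciPy 1.17.1. Both fits were tested on simulated data with large changes, and the simulated sites had no scatter between libraries beyond counting. That check does not show what the fits would find at the differences seen here. The genes, gene lists and rules were chosen with earlier results of these data known. Named were the 10 genes, transcripts with a lone site, the 2 best covered genes of a partner list, any partner with a site of 30%, and Trdmt1, though not every transcript that met these rules is reported here. Same-numbered libraries deviated together in coverage (r of 0.253, 0.154 and 0.534), so by the rule set the numbers were taken to pair the libraries there, although wild-type replicate 1 correlated more with knockout replicate 2 (0.441) and wild-type replicate 2 with knockout replicate 1 (0.192). They did not pair them in site level (0.0443, 0.0652 and 0.145). Alternatives were other minimums, scalings, pseudocounts and filters, the replicate block, Fisher's exact test, other windows and leaving out each library.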

Additional observations from a re-analysis of the deposited data

How the results depend on the processing

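No member site or transcript was called by edgeR, limma or Fisher's exact test under any alternative run. Adjusted p for sites was 0.998 or more in edgeR and 0.832 or more in Fisher's exact test on summed reads, and it ran from 0.294 to 1.0 for transcripts. With the replicate block, which pairs same-numbered libraries, 0 sites and 0 transcripts of the 10 mRNAs were called. The median wild-type level of the highest cytosines, 61.4%, was 61.4% to 63.6% with 1 library left out. The highest cytosine was picked anew in each setting, so these medians do not always compare the same sites. With all 6 libraries it was position 872 at 6.0% for Srsf6 and position 2348 at 9.44% for Med24. Without wild-type replicate 3 it was position 1251 at 61.9% for Srsf6 and position 553 at 62.6% for Med24. At a minimum of 20 reads the median was 16.6%, and the highest cytosine left was at 0.617% for Rab4b and 5.02% for Snrnp40. The number of transcripts with a lone site, 9, became 16 at a level of 30%, 4 at 20 reads, 14 at 5 reads (chosen after seeing the data) and 15 without wild-type replicate 3. Leaving out 1 library turned the sign of small site differences, which ranged from -6.18 to 5.27 points for Nid2, -4.53 to 0.31 for Sec61a1, -4.95 to 3.81 for Rab4b, -4.85 to 5.56 for Med24 position 2348, -22.5 to 2.85 for Snrnp40 and -5.86 to 4.38 for Gcn1. It also turned log2 differences in coverage, from -0.057 to 0.14 for Cenpv, -0.089 to 0.16 for Sec61a1, -0.19 to 0.020 for Rab4b and -0.19 to 0.046 for Med24. With only cytosines listed in all 6 libraries, Snrnp40 stood at 0.0083 in place of -0.09. The cause of these turns was not tested. Depth limits Srsf6 and Med24 most, with 9 and 7 reads at the site in wild-type replicate 3.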

Other observations

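At the lower level of 30% in every library, lone sites were also found in Poldip3 (positions 2385 and 2301), Eif3i (48), Fscn1 (866), Hdgf (1104), Cdca4 (2077) and Il6st (573). The pair in Poldip3 stood at 47.2% ± 8.46 and 40.8% ± 0.838 in the wild type and 47.3% ± 3.90 and 43.7% ± 0.980 in the knockout (SD, n = 3 each). Hdgf averaged 39.6% ± 3.01 in the wild type and 46.6% ± 4.06 in the knockout, Cdca4 40.6% ± 10.1 and 45.3% ± 7.78, and Il6st 38.4% ± 10.1 and 38.6% ± 11.6. Eif3i encodes a translation initiation factor subunit, Fscn1 an actin-bundling protein and Il6st the gp130 receptor chain through which leukaemia inhibitory factor signals in embryonic stem cells. The highest of their neighbours within 50 nt averaged 3.13% to 5.70%.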
